A study of Mus musculus with 6 samples.

Results

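The MS4A genes encode small membrane proteins of 1 family, and 10 of its mouse members were followed here in plasmacytoid dendritic cells (pDCs) from mice labelled as deficient in the transcription factor IRF8. The members were chosen by name: Ms4a1, Ms4a2, Ms4a3, Ms4a4b, Ms4a4c, Ms4a4d, Ms4a6b, Ms4a6c, Ms4a6d and Ms4a7. They are 10 of 19937 genes measured. Each was read from the probe sets annotated to that symbol alone, and the brightest by its mean over all 6 arrays was to stand for the gene. Every member had exactly 1 such probe set, so brightness decided none of them. Their values come from Affymetrix arrays of splenic cells carrying B220 and SiglecH, with 3 samples from IRF8-deficient mice (KO) and 3 from wild-type mice (WT). The labels do not give the IRF8 allele, the strain, the age, or whether a sample is 1 animal or a pool. P-values therefore cover only the variation among these 6 samples, part or all of which may be technical.

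MS4A proteins cross the membrane several times and sit in complexes with other surface receptors, whose signals and trafficking they adjust. CD20, the product of Ms4a1, marks B cells, and the product of Ms4a2 is the beta chain of the high-affinity IgE receptor of mast cells and basophils. Other members are known from T cells, monocytes and macrophages. IRF8 is a transcription factor needed for several dendritic cell and monocyte lineages, and the series asks how it controls the last steps of pDC differentiation.

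Of the 10 members, 4 rose in KO pDCs and 0 fell: Ms4a6b, Ms4a4c, Ms4a6c and Ms4a4b. The rises were 3.77 log2 units for Ms4a6b, 1.97 for Ms4a4c, 1.58 for Ms4a6c and 1.21 for Ms4a4b. The other 6 members, CD20 and the IgE receptor beta chain among them, had log2 differences between -0.33 and 0.14, none past the threshold. The test was limma over all genes, with p-values adjusted by the Benjamini-Hochberg method and a threshold of 0.05. Of all genes tested, 2.3% rose and 2.08% fell by the same test, 4.38% in all. In each of the 4 the KO values lay wholly outside the WT range, as they did in 20.4% of all genes. The members were picked with earlier results known, the rise of Ms4a6b among them, so their count is a description of the family.

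The 4 genes that rose form 2 pairs of alike promoters, and the windows of the pair with the higher identity are shown. Windows from RefSeq on mouse build GRCm38.p6 run from 250 bases before to 50 bases after a transcript start. Of the 10 members, 8 had at least 1 window. Ms4a1 and Ms4a6d had none, so the promoter of Ms4a6d was not compared with those of Ms4a6b and Ms4a6c. Ms4a4a, not a member, was not compared either. The windows of Ms4a4b at chr19:11443308-11443607 and of Ms4a4c at chr19:11407411-11407710 lie on the plus strand. Capitals mark the 2 longest runs that both share.
Ms4a4b: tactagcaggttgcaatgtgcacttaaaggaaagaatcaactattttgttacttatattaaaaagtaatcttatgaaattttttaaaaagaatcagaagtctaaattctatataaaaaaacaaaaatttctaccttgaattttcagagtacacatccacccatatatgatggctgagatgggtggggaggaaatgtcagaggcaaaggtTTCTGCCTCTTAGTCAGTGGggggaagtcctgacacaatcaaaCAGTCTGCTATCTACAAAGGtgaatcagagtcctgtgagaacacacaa
Ms4a4c: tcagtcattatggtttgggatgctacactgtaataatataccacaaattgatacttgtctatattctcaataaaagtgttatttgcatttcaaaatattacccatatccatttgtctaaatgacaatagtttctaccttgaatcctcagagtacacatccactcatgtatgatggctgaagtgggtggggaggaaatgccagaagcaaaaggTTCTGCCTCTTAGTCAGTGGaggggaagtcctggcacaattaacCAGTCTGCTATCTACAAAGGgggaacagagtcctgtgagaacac

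The Ms4a6b and Ms4a6c windows aligned with 188 identical bases in 232 columns, 81.0%, and their longest identical run was 48 bases. The Ms4a4b and Ms4a4c windows aligned with 162 identical bases in 183 columns, 88.5%, and their longest identical runs were the 2 stretches of 20 bases in capitals. Only the first listed window of each of the 8 members was aligned, which gave 28 pairs. Among the other 26 of these 28 pairs, no alignment held more than 50 identical bases.

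On both strands GAAANNGAAA, a form of the element that IRF proteins bind, occurred in 3.44% of 32851 RefSeq windows and in 0 of 9 member windows. GGAANNGAAA, the composite element of IRF8 with an ETS factor such as PU.1, occurred in 2.72% of all windows and in 0 of 9 member windows. No match says only that these letters are not in these windows.

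Ms4a6b, a member known from T cells, had the largest change of the family. Its log2 level was 9.65, 9.76 and 9.21 in KO replicates 1 to 3, against 5.71, 5.81 and 5.77 in WT replicates 1 to 3. The KO arrays all lay far above the WT arrays, and the WT arrays lay within 0.10 of each other. The means were 9.54 ± 0.29 in KO and 5.76 ± 0.05 in WT (SD, n = 3 each), a 13.7-fold higher level in KO. The log2 difference was 3.77 (SE 0.16, limma adjusted p = 3.27e-05). An exact two-sided permutation test of this 1 gene gave p = 0.10, the smallest that 3 against 3 arrays allow, and the same held for the other 3 genes that rose.

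Ms4a6c, which is known from monocytes, is the member whose promoter window most resembles that of Ms4a6b. It read 10.29, 9.71 and 9.42 in KO replicates 1 to 3, against 8.46, 8.53 and 7.68 in WT replicates 1 to 3. The genotypes did not overlap, but the arrays of each were spread over more than 0.8 log2 units. The log2 difference was 1.58 (SE 0.29, limma adjusted p = 0.0237), a 2.99-fold higher level in KO, with means of 9.81 ± 0.44 in KO and 8.22 ± 0.47 in WT (SD, n = 3 each). The call was lost without KO replicate 2 (adjusted p = 0.0837), without WT replicate 2 (0.0521) and without WT replicate 3 (0.0603), while the difference stayed between 1.31 and 1.78 over all single arrays left out. KO replicate 1, which was the highest KO array for Ms4a6c, also held the highest signal of neutrophil genes.

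Ms4a4c kept close values within each genotype. It read 9.42, 9.17 and 9.25 in KO replicates 1 to 3, against 7.54, 7.14 and 7.26 in WT replicates 1 to 3. Both genotypes kept within 0.40 log2 units, and the gap between them was wider than either. The log2 difference was 1.97 (SE 0.14, limma adjusted p = 0.000388), a 3.91-fold higher level in KO, with means of 9.28 ± 0.13 in KO and 7.31 ± 0.21 in WT (SD, n = 3 each).

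Ms4a4b, a regulator of T cell proliferation, had a dimmer signal. It read 5.71, 5.84 and 5.47 in KO replicates 1 to 3, against 4.55, 4.44 and 4.39 in WT replicates 1 to 3. All WT values lay under 4.56, the 25th percentile of all levels on these arrays, and all KO values above it. The log2 difference was 1.21 (SE 0.13, limma adjusted p = 0.00237), which may understate the change, since no background level was used here.

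**Figure D1:**
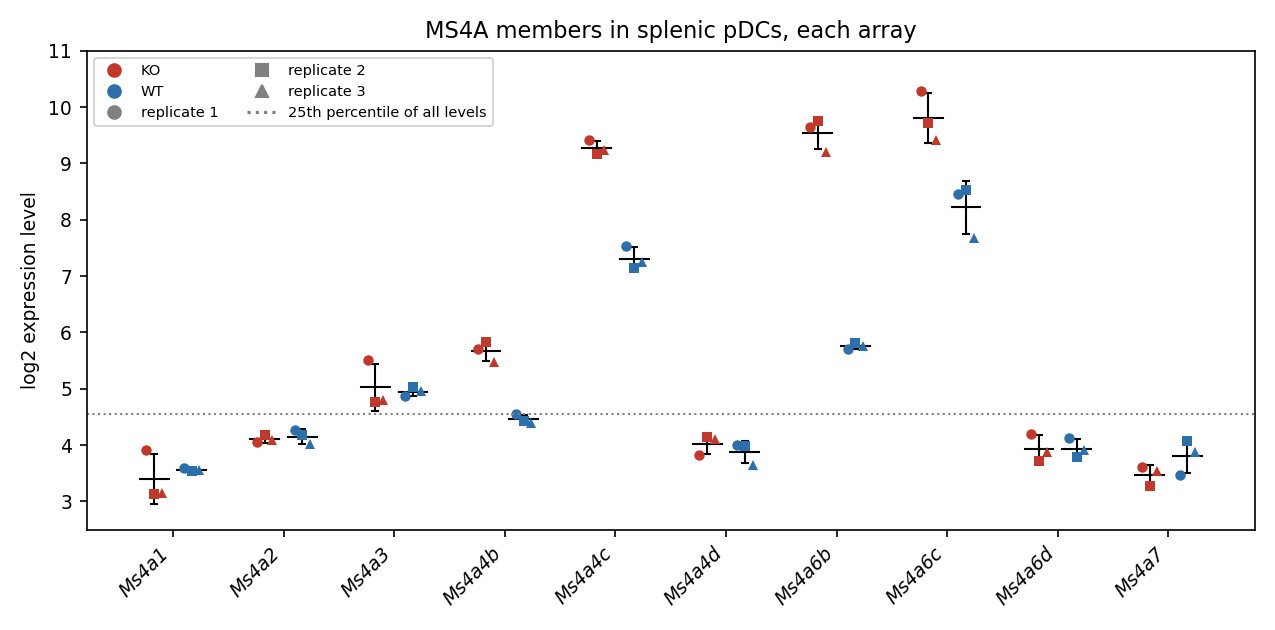
Log2 expression level of the 10 MS4A members in each array, KO to the left of WT, with marker shapes for the replicate number and bars for the mean ± SD (n = 3). Ms4a6b, Ms4a4c, Ms4a6c and Ms4a4b have all KO points above all WT points, while Ms4a1, Ms4a2, Ms4a4d, Ms4a6d and Ms4a7 stay under the dotted line at 4.56, the 25th percentile of all levels. Levels of different genes come from different probes and are not to be compared.

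The genes of CD20 and the IgE receptor beta chain gave low signals in both genotypes. Ms4a1, which encodes CD20, read 3.91, 3.13 and 3.15 in KO replicates 1 to 3, against 3.60, 3.53 and 3.55 in WT replicates 1 to 3. KO replicate 1 lay above the WT arrays and the other KO arrays below them (log2 difference -0.17, 95% interval -0.65 to 0.32, limma adjusted p = 0.789). Without KO replicate 1 the difference was -0.42 (adjusted p = 0.0794). Ms4a2, the IgE receptor beta chain, ranged from 4.05 to 4.18 in KO and from 4.01 to 4.27 in WT, with overlapping genotypes (difference -0.04, interval -0.31 to 0.22, adjusted p = 0.912). No detection call was used, so these are low signals and are not called absent.

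Ms4a3, known from granulocyte and monocyte progenitors, read 5.51, 4.77 and 4.81 in KO replicates 1 to 3, against 4.87, 5.03 and 4.96 in WT replicates 1 to 3. KO replicate 1 was above every WT array and the other KO arrays were below them all. The log2 difference was 0.08 (95% interval -0.39 to 0.55, limma adjusted p = 0.910), and -0.16 without KO replicate 1 (adjusted p = 0.537). Markers of neutrophils and granulocyte progenitors stood out in the same array. Relative to WT means, the list's median gene stood at 2.55, 0.32 and 0.06 log2 units in KO replicates 1 to 3, against 0.23, -0.01 and -0.18 in WT replicates 1 to 3. The log2 of the list's summed signal, which weighs bright genes most, was 9.39 to 14.11 in KO and 8.40 to 10.62 in WT. All 12 of these markers had a positive difference, 0 passed the threshold, and the part they have in the members' values was not tested. Without KO replicate 1, Ms4a6b, Ms4a4c, Ms4a6c and Ms4a4b all still passed.

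The remaining monocyte and macrophage members also stayed dim. Ms4a7, found in macrophages and microglia, read 3.60, 3.28 and 3.54 in KO replicates 1 to 3, against 3.48, 4.07 and 3.87 in WT replicates 1 to 3. The genotypes overlapped, and the log2 difference was -0.33 (95% interval -0.74 to 0.08, limma adjusted p = 0.429). Ms4a6d, known from macrophages, ranged from 3.72 to 4.21 in KO and from 3.78 to 4.12 in WT (difference -0.0036, interval -0.37 to 0.37, adjusted p = 0.996). Ms4a4d ranged from 3.82 to 4.14 in KO and from 3.65 to 4.001 in WT (difference 0.14, interval -0.20 to 0.48, adjusted p = 0.729).

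The closest relatives by name did not all pass the threshold. Within the Ms4a6 genes, Ms4a6b and Ms4a6c rose and Ms4a6d differed by -0.0036. Within the Ms4a4 genes, Ms4a4b and Ms4a4c rose and Ms4a4d differed by 0.14. The intervals of Ms4a6d and Ms4a4d ended at 0.37 and 0.48, below the lower ends for Ms4a6c, 0.91, and Ms4a4b, 0.92. All values of Ms4a6d and Ms4a4d lay under 4.56, the 25th percentile of all levels, so their changes may be understated. The differences between relatives were not tested. Paralogs this alike can share a probe set's signal. Probe sequences and transcripts were not analysed here, so how much of the rise of Ms4a6c or Ms4a4b is signal from Ms4a6b or Ms4a4c was not tested.

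The 4 genes that rose lie next to each other on mouse chromosome 19. In the RefSeq gene order the family forms 1 run of 21 genes, of which 19 were measured. Within it stand Ms4a4c, Ms4a4b, Ms4a6c, the gene Gm8369, which was not analysed here, and Ms4a6b. On one side follow Ms4a4a, with a log2 difference of 0.46 (limma adjusted p = 0.277), and Ms4a7. On the other side follow Ms4a4d, Ms4a6d, Ms4a2 and Ms4a3. The 5 named neighbours on either side of the run, Tmem109 to Ccdc86 and Oosp2 to Mrpl16, had differences between -0.16 and 0.14, and 0 of 10 passed the threshold. No test was made of whether the rises are grouped along the chromosome.

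**Figure D2:**
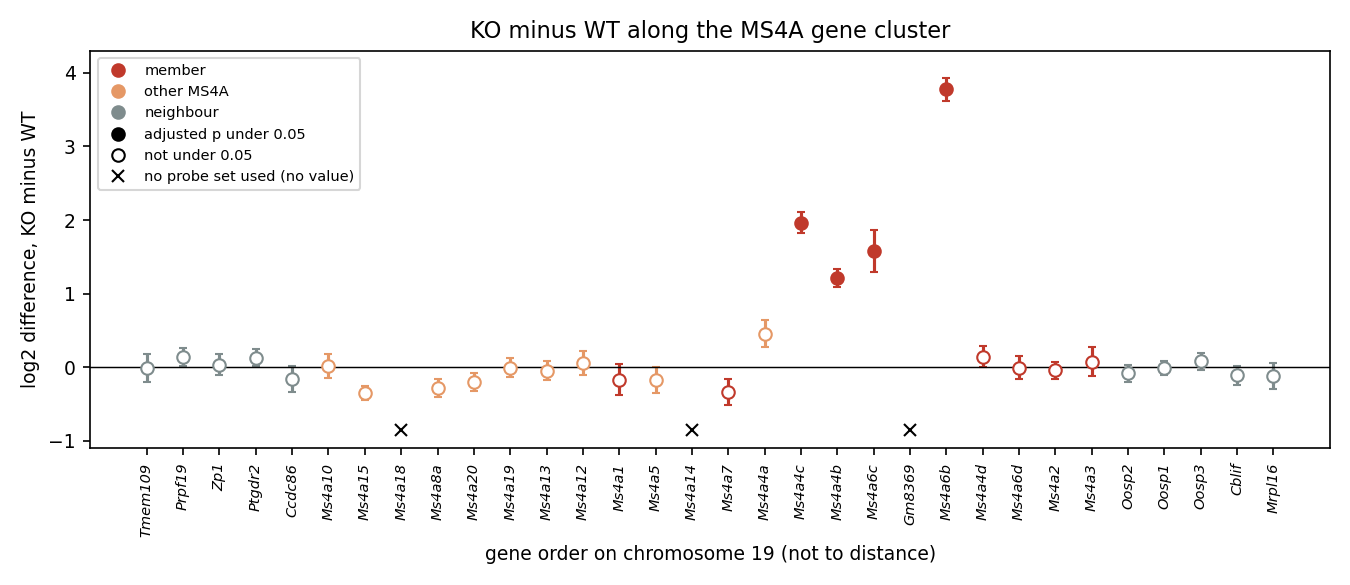
Log2 difference, KO minus WT, with its SE, for genes in RefSeq order along the MS4A run of chromosome 19 and 5 named neighbours on each side. Filled points passed the threshold, and crosses mark 3 genes with no value. Ms4a4c, Ms4a4b, Ms4a6c and Ms4a6b are filled and adjacent apart from 1 gene with no value, and all measured genes outside that block are open.

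Among 11 other measured genes of the family and its relatives, 2 rose and 0 fell: Tmem176a and Tmem176b. Both encode MS4A-related membrane proteins of dendritic cells, form a neighbouring gene pair on another chromosome and were listed as family relatives. Tmem176a read 9.44, 8.82 and 8.70 in KO replicates 1 to 3, against 6.97, 7.29 and 6.91 in WT replicates 1 to 3 (log2 difference 1.93, SE 0.21, limma adjusted p = 0.00278). Tmem176b read 9.74, 9.13 and 9.03 in KO replicates 1 to 3, against 7.77, 7.47 and 7.25 in WT replicates 1 to 3 (difference 1.81, SE 0.22, adjusted p = 0.00412). Every KO array was above every WT array for both, and KO replicate 1 was the highest. The other 9 were Ms4a genes without a call, with differences from -0.35 for Ms4a15 (adjusted p = 0.112) to 0.46 for Ms4a4a. The median difference was 0.11 over the members, -0.01 over these 11 genes and -0.04 over all genes.

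Centred profiles over the 6 arrays were compared by distance, among genes with a RefSeq-matched probe set. Predicted genes, clone names, small RNA genes and olfactory and vomeronasal receptor genes were left out. Of the genes searched, those most like Ms4a6b were Ptgs2, Atp8b4 and Oas2, with distances of 0.22, 0.24 and 0.27 log2 units. Their own differences were 3.48, 3.37 and 3.65. The profile of Ms4a4c was nearest to Myl4, Pid1 and Oasl2 (0.13, 0.13 and 0.17). That of Ms4a6c was nearest to Bcl2, Oas1a and Tmem176b (0.17, 0.21 and 0.22), and that of Ms4a4b to Esr1, Smim3 and Znrf1 (0.11, 0.11 and 0.11). With 6 arrays in 2 groups, such likeness cannot be told apart from a genotype difference of like size. Oas2, Oasl2 and Oas1a are interferon-induced sensors of double-stranded RNA or their relatives. In the list of interferon-stimulated genes that holds them, 10 of 21 rose and 0 fell, with a median difference of 0.85. The rest had no call, with differences from -0.56 for Bst2 to 0.85 for Usp18, both named after their values were seen. Of the 21, 18 were above 0. Ifit2, 1 of the 10, lost its call without any single array except KO replicate 1 (limma adjusted p up to 0.0987).

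The signal of Ms4a1 was low in both genotypes, while some other B cell genes rose. Of 11 measured B cell markers, 5 rose and 0 fell by limma, with a median difference of 0.57. Blk, a kinase of the B cell receptor, read 8.81, 9.03 and 8.99 in KO replicates 1 to 3, against 6.45, 6.56 and 6.56 in WT replicates 1 to 3 (log2 difference 2.42, adjusted p = 4.81e-05). Bank1, a B cell scaffold protein, rose by 2.47 (adjusted p = 0.00361), Cd79a, a chain of the B cell receptor, by 1.65 (0.00602) and Cd22, an inhibitory receptor, by 1.51 (0.0213). The summed signal of the list was 11.46 to 11.86 in KO and 10.99 to 11.36 in WT on the log2 scale. Cd22 missed the threshold without KO replicate 3 or WT replicate 2 or 3 (adjusted p up to 0.0922). Cd79b, the partner chain of Cd79a, differed by -0.08 (adjusted p = 0.812) and was named after its values were seen.

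The partners of the IgE receptor beta chain did not pass the threshold. Of 5 measured, 0 rose and 0 fell by limma, with 2 at an unadjusted p under 0.05. Lyn was listed but not measured. All 5 differences were below 0, with a median of -0.27. The log2 summed signal, in which Fcer1g was brightest, was 12.27 to 12.34 in KO and 12.82 to 12.88 in WT. Fyn, a kinase, differed by -0.74 (adjusted p = 0.174) and Fcer1g, the shared gamma chain, by -0.59 (adjusted p = 0.0644). Fcer1a, the chain that binds IgE and was named after its values were seen, stayed near 3.36 in KO and 3.53 in WT. Of 10 mast cell and basophil markers 0 passed in either direction. Their log2 summed signal, in which Kit was brightest, was 8.92 to 9.50 in KO and 8.37 to 8.61 in WT. Their largest differences were 1.54 for Kit, a growth factor receptor (adjusted p = 0.0546), and 0.31 for Hdc, which makes histamine (0.607).

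Markers of the other cells in which the members are known moved both ways. Of 10 T cell markers, 2 rose and 2 fell: Cd8a by 1.51 (limma adjusted p = 0.00128) and Cd5 by 1.09 (0.0159) upward, while Cd4 fell by 1.18 (0.00227) and Cd8b1 fell by 1.16 (0.00604). Cd5 lost its call without KO replicate 2, KO replicate 3 or WT replicate 2 (adjusted p up to 0.0779). The T cell receptor chains Cd3d, Cd3e, Cd3g and Cd247, named after their values were seen, differed by -0.29 to -0.02 with adjusted p of 0.783 to 0.987. Of 14 monocyte and macrophage markers, 0 rose and 2 fell. Cd68, a lysosomal protein, fell by 1.55 (adjusted p = 0.000736) and C1qb, a complement chain, fell by 1.47 (0.0385). C1qb lost its call without KO replicate 2 or 3 or WT replicate 2 or 3 (adjusted p up to 0.137). It read 5.66, 6.99 and 6.57 in WT replicates 1 to 3. C1qc, without a call and named after its values were seen, read 5.84, 8.93 and 8.57 there (log2 difference -2.46, limma adjusted p = 0.135). Relative to WT means, the list's median gene stood at -0.17, 0.10 and 0.03 in WT replicates 1 to 3. Of 10 NK cell markers, 0 rose and Klrk1, an activating receptor, fell by 1.26 (adjusted p = 0.00656). The median difference of these 10 was 0.10, and 6 were above 0. Among them Nkg7, a granule protein, differed by 1.72 (limma adjusted p = 0.103) and the granule protease gene Gzmb by 0.75 (0.0989), 2 genes picked with their values known. The log2 summed signal of T cell markers was 11.87 to 12.02 in KO and 11.75 to 11.84 in WT. For monocyte and macrophage markers it was 11.23 to 11.62 in KO and 12.07 to 12.14 in WT. For NK cell markers it was 8.36 to 9.22 in KO and 8.23 to 8.47 in WT. Such sums weigh bright genes most, so a few genes can set them. Cd68 averaged 9.77 in KO and 11.32 in WT, while Ccr2, another bright marker of that list, averaged 10.02 in KO and 9.60 in WT. Fewer cells of a type and less RNA per cell cannot be told apart in these bulk samples, and the part of other cells in the members' rises was not tested.

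**Figure D3:**
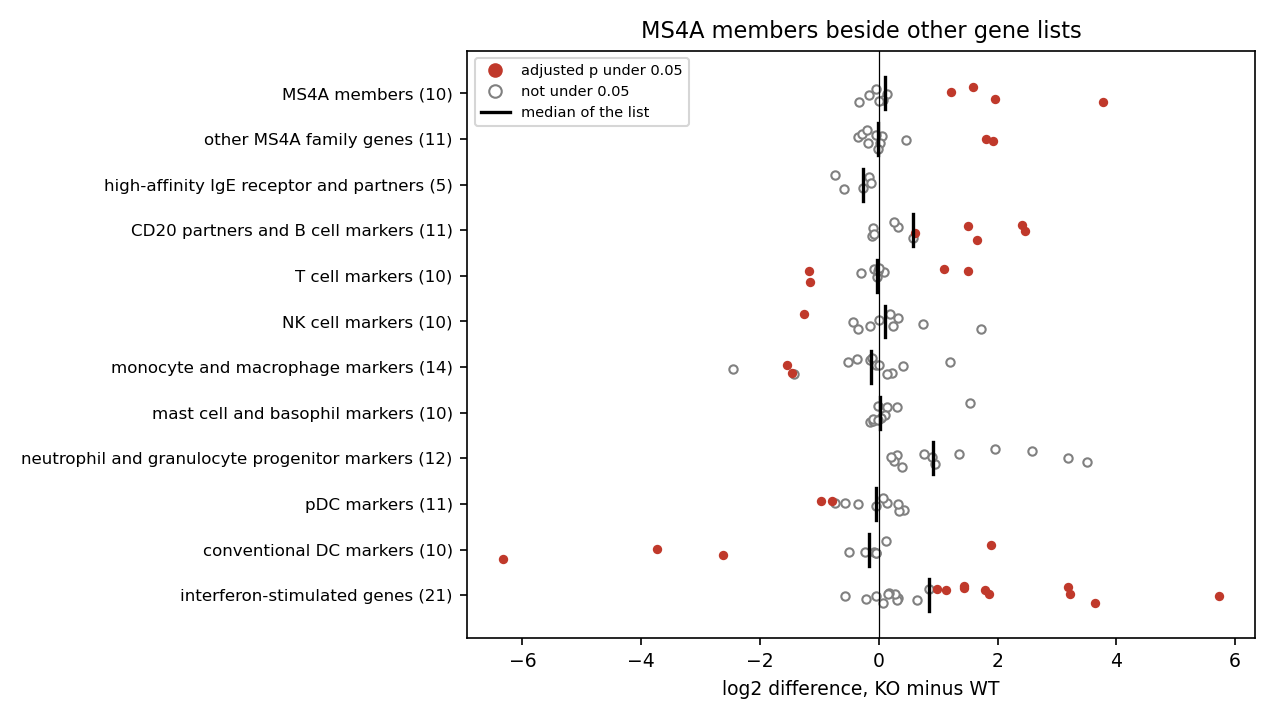
Log2 difference, KO minus WT, of every measured gene in the MS4A members and 11 other gene lists, with the number of measured genes in parentheses and a bar at each median. The 4 MS4A members that rose stand to the right of the other 6, and the monocyte and macrophage list has its 2 called genes on the left.

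The gate and the targeted gene were read on the same arrays. Siglech measured 12.27 ± 0.08 in KO and 12.62 ± 0.12 in WT (SD, n = 3 each; limma adjusted p = 0.169). Ptprc, the gene of the B220 protein, measured 11.60 ± 0.25 in KO and 11.47 ± 0.14 in WT (adjusted p = 0.765). Of 11 pDC markers, 0 rose and 2 fell: Ccr9, a homing receptor, fell by 0.97 and Pacsin1 fell by 0.78. Ccr9 missed the threshold without KO replicate 2 or 3 or WT replicate 2 or 3 (adjusted p up to 0.0817). Of 10 conventional dendritic cell markers, Itgam rose by 1.89, and Clec9a, Cd209a and Clec10a fell by 6.32, 3.73 and 2.62. The KO means of Clec9a, 3.84, and Clec10a, 3.96, lay under the 25th percentile of 4.56, so these 2 falls may be understated. The rest of that list had no call, with differences from -0.50 for Sirpa to 0.12 for Xcr1, both named after their values were seen. The median difference of the list was -0.16. Irf8 itself showed no fall in KO, at 10.48 ± 0.32 in KO and 10.14 ± 0.15 in WT (SD, n = 3 each; adjusted p = 0.426). Which part of Irf8 was altered is not in the labels, and a probe set outside it checks nothing, so the direction of every difference rests on the labels.

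Under 15 other processing settings, which leave out arrays or change the scaling, the probe sets or the model, Ms4a6b, Ms4a4c and Ms4a4b passed the threshold in every one that tested them. The difference of Ms4a6b lay between 3.66 and 3.94, that of Ms4a4c between 1.88 and 2.08 and that of Ms4a4b between 1.13 and 1.31. Ms4a6c passed in 12 of 15. None of the other 6 members passed in any, with a lowest adjusted p of 0.0794 for Ms4a1 and 0.0904 for Ms4a7.

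**Figure D4:**
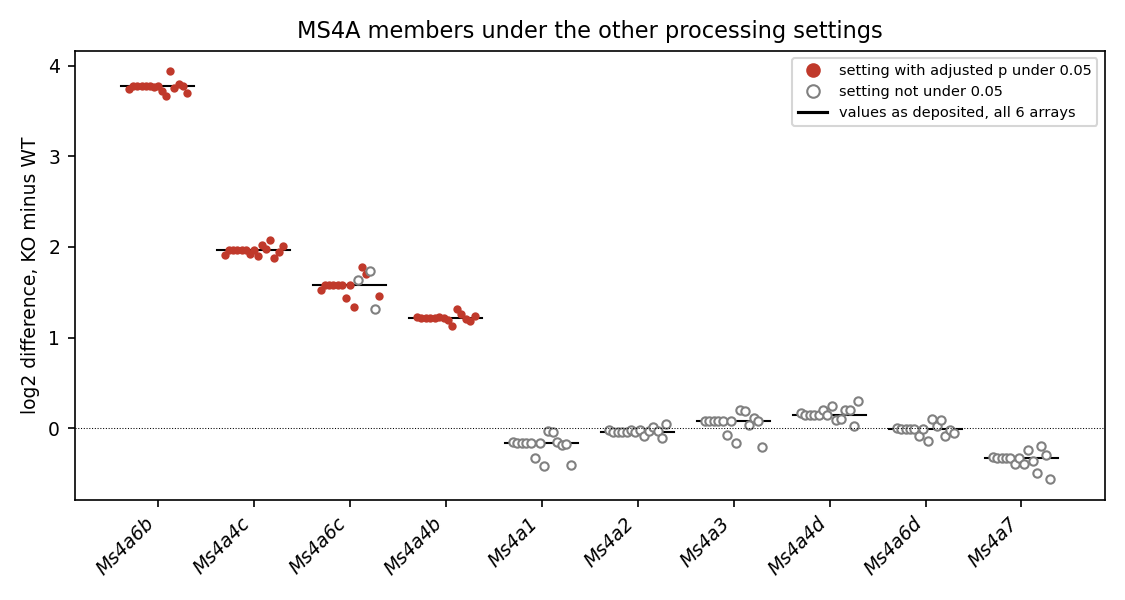
Log2 difference, KO minus WT, of each MS4A member under the other processing settings, 1 point a setting, with a bar at the value from all 6 arrays as deposited. Points of Ms4a6b, Ms4a4c and Ms4a4b are all filled, 3 points of Ms4a6c are open, and the other 6 members have no filled point.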

How the data were processed

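The deposited table holds log2 levels of each probe set on each array, and they were used as they stood. The scale was read from the values. For the authors' software, background correction and normalization of these log2 values, nothing is given in the sources used here. RNA was amplified with NuGen PICO SL and biotin-labelled for Affymetrix arrays, per the labels' protocols. Array medians lay between 5.53 and 5.56, so a change of all transcripts one way cannot be seen. The number of arrays limits the precision.

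Of 34760 probe sets, 21640 had 1 gene symbol in the platform table, 1321 had several and 11799 were not listed there. The brightest single-symbol probe set stood for each of 19937 genes, without a filter on dim genes. KO and WT, grouped by sample title, were compared with limma 3.58.1 in R 4.3.3 (lmFit and eBayes, no covariates, two-sided). The code was also run on simulated independent normal values, which cannot show how well the real arrays meet the model. Differences are KO minus WT. Member promoters were aligned pairwise with Biopython 1.88 (local, match 1, mismatch -1, gap -3 to open and -0.5 to extend); plots used matplotlib 3.10.9.

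The members and gene lists were chosen with earlier results of these data known. Besides the 10 members, the genes named were the checks Irf8, Siglech and Ptprc, up to 4 called genes of a list (or 2 as values where none passed), called family relatives, the 3 nearest profiles of each called member and the neighbours of the MS4A run. Alternatives were quantile normalization, centred medians, bright genes, probe set means, RefSeq-matched probe sets, a robust variance trend, the replicate number as a block, array weights (statmod 1.5.0) and arrays left out. Part of the promoter sequence comparison is not reported here.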

Additional observations from a re-analysis of the deposited data

How the results depend on the processing

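The 4 rises and 0 falls among the members held within 1 gene under all 15 alternatives, with 3 to 4 rises and 0 falls when single arrays were left out. Ms4a6c missed the threshold, at 1.63, 1.74 and 1.31 log2 units, without KO replicate 2, WT replicate 2 and WT replicate 3. Among bright genes the count was also 3, because that filter left Ms4a4b untested. Over all genes the 459 rises and 415 falls moved more: 716 and 647 with array weights, 707 and 655 with the replicate block, 741 and 641 without the pair of arrays numbered 1, and 249 to 780 and 202 to 719 with single arrays left out. The deviations of same-numbered KO and WT arrays from their group means correlated at 0.38, 0.10 and 0.25 for numbers 1 to 3. Differently numbered arrays correlated between -0.31, for KO replicate 1 with WT replicate 3, and 0.20, for KO replicate 2 with WT replicate 3. The labels do not say what the number stands for, and whether arrays of the same number belong together was not tested. With the replicate block, which fits the arrays as pairs by number, the members' calls were the same. The limma adjusted p was then 5.98e-05 for Ms4a6b and 0.0024 for Ms4a6c.

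Counts in the context lists were less stable. The bright-gene filter left Cd79a, Fcer2a, C1qb and Klrk1 untested, so its lower B cell, monocyte and NK cell counts are not failed calls. The cause of the other changes was not tested. B cell rises were 3 among bright genes and 3 to 5 without single arrays. T cell rises were 1 to 2 without single arrays. Mast cell and basophil rises were 1 with quantile normalization, bright genes, a robust trend, array weights, the replicate block and without both arrays numbered 1, and 0 to 1 without single arrays. Falls of IgE receptor partners were 1 with array weights, 2 with the replicate block, 1 without both arrays numbered 1 and 0 to 1 without single arrays. Interferon-stimulated falls were 1 in the first 3 of these settings and 0 to 1 without single arrays. Monocyte and macrophage falls were 1 among bright genes, 5 without both arrays numbered 1, beside 1 rise, and 1 to 4 without single arrays. Neutrophil rises were 2 with the replicate block, 2 without both arrays numbered 1 and 0 to 1 without single arrays. NK cell rises were 1 with array weights, 2 with the replicate block and 1 without both arrays numbered 1, and NK cell falls were 0 among bright genes, 2 with a robust trend and 2 with array weights. pDC marker falls were 4 with the replicate block and 1 to 3 without single arrays, beside 0 to 1 rises. With 3 arrays a group and no detection calls, changes among the dim members, 5 of them with mean signals under the 25th percentile, are limited by signal over background.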
